A study of Rattus norvegicus with 6 samples.

Results

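After forskolin (FSK), 15480 chromatin regions were called as accessible in both WT and Med14 S983A cells that were called in no CON or Ex-4 library. They were chosen by these calls alone, so their absence from the CON and Ex-4 peak lists is a description and not a finding. They make up 7.02% of the 220487 merged peaks off the mitochondrial chromosome and 12.7% of the 121995 peaks called in both FSK libraries. They are referred to here as FSK-only peaks.

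The cells were INS-1, a rat insulinoma line used as a model of the pancreatic beta cell. WT INS-1 cells, and INS-1 cells edited to carry an alanine in place of serine at one site of Med14 (Med14 S983A), were left untreated (CON), exposed to 10 µM FSK for 1 h, or exposed to 10 nM Ex-4 for 1 h, after transfer to serum-free medium. ATAC-seq, in which a transposase cuts and tags accessible DNA, was performed on nuclei from each condition. There was 1 library per condition, so no replicate error exists and each difference describes a pair of libraries. The Med14 S983A lines were raised from single sorted cells, and differences between such a clone and WT cells that do not come from the edit cannot be told apart from the effect of the edit. Beta cell marker genes were not checked, because a gene annotation of the rn6 build was not used here.

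FSK activates adenylate cyclase directly, whereas Ex-4, a GLP-1 receptor agonist, raises cAMP through a G protein-coupled receptor. cAMP activates protein kinase A, which phosphorylates CREB at cAMP response elements, and newly opened regions far from promoters often act as enhancers. Med14 is a scaffold subunit of Mediator, the complex that links enhancer-bound factors to RNA polymerase II.

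The reads in peaks, recovered from the values, ranged from 134300000 in Med14 S983A CON to 251200000 in WT FSK, with 162900000 in Med14 S983A FSK. A merged peak that a library's own list lacks is listed at 0 in the table. Of the FSK-only peaks, between 15465 (WT Ex-4) and 15472 (Med14 S983A CON) were listed at 0 in each of the CON and Ex-4 libraries. The few others had at most 0.400 FPKM (fragments per kilobase of peak, scaled to the reads in the library's own peaks) there. Such zeros are not measured absence of reads, and no fold change against them is given. For the same reason, a library whose call covers only part of a merged peak can have a lowered value there. The width of each library's own call was not examined.

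The FSK-only peaks were short and mostly weak. Their median length was 198 bp, with a middle range of 155 to 262 bp, against 584 bp for the 86576 constitutive peaks, which were called in all 6 libraries. Their median level was 3.26 FPKM in WT FSK, with 5% below 1.39 and 5% above 12.7, and 2.98 FPKM in Med14 S983A FSK, with 5% below 1.37 and 5% above 11.3. The median peak held 169 reads in WT FSK and 98 in Med14 S983A FSK, which gives counting errors of 7.69% and 10.1%. In 70.2% of the FSK-only peaks both values were under 5 FPKM, and in 116 peaks both reached 20 FPKM. Among peaks of 155 to 262 bp that WT CON called, the median level was 3.22 FPKM and 5% lay below 1.29 FPKM. Of the FSK-only peaks in that length range, 51.7% were above that median in WT FSK and 44.3% in Med14 S983A FSK, while 96.7% and 97.8% were above the lower value. In Med14 S983A CON the median of such called peaks was 3.33 FPKM and 5% lay below 1.42 FPKM. In Med14 S983A FSK, 41.6% of the FSK-only peaks were above that median and 95.9% above that lower value. Most FSK-only peaks had levels at which some peaks of their size were called in CON. How often regions at such levels were left uncalled was not measured.

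The boundary of the rule lies among very weak values. The weakest FSK-only peak, at chrX:60453812-60453984, had 0.347 FPKM in WT FSK and 0.143 FPKM in Med14 S983A FSK, from 15 and 4 reads. The next weakest were chr1:182009178-182009454, with 0.591 and 0.711 FPKM, and chr3:151011308-151011808, with 0.980 and 0.515 FPKM. Just outside the rule were 5704 peaks called in both FSK libraries and in 1 further library. Of these, 3465 were called in Med14 S983A Ex-4, 1159 in WT Ex-4, 565 in Med14 S983A CON and 515 in WT CON. The 3 with the lowest value in the further library were chr14:107576059-107576630 and chr10:87119809-87120478, with 0.265 and 0.282 FPKM in WT Ex-4, and chr7:132962518-132963314, with 0.290 FPKM in Med14 S983A Ex-4. The chr10 peak reached 10.9 FPKM in WT FSK and 11.2 FPKM in Med14 S983A FSK. Its call in WT Ex-4, where it had 0.282 FPKM, kept it out of the FSK-only set.

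**Figure D1:**
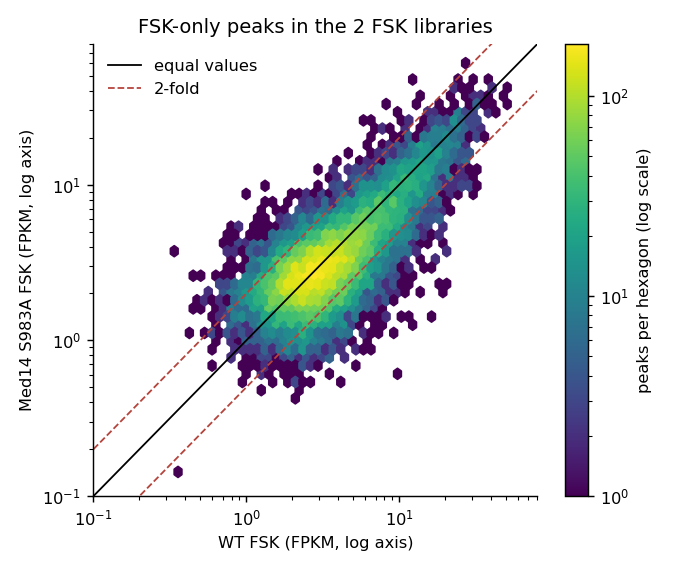
FPKM of the 15480 FSK-only peaks in WT FSK (x) and Med14 S983A FSK (y), both on log axes, with the number of peaks per hexagon in colour, the line of equal values and dashed lines at 2-fold on the FPKM without a pseudocount. Most peaks lie between 1 and 5 FPKM in both libraries and inside the dashed lines.

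The strongest FSK-only peaks all lay beside regions that were open in every library. The 10 with the highest lower value of the 2 FSK libraries were found on chromosomes 1 (6 peaks), 7 (3 peaks) and 16, and each was within 3.73 kb of a constitutive peak. The first, chr7:143617263-143617514, had 51.8 FPKM in WT FSK (95% exact Poisson interval 50.02 to 53.59) and 44.2 FPKM in Med14 S983A FSK (42.2 to 46.3). These intervals cover counting error only. Its nearest constitutive peak, 715 bp away, had 68.9 FPKM in WT CON and 73.2 FPKM in WT FSK. The peak chr1:101696751-101696908 had 39.6 and 46.3 FPKM in the 2 FSK libraries, with a constitutive peak of 52.7 FPKM in WT CON at 891 bp. At chr1:226438218-226438388 the values were 47.6 and 34.5 FPKM, and the constitutive peak 599 bp away fell from 54.1 FPKM in WT CON to 45.5 FPKM in WT FSK. Of the 10 peaks, 8 had less signal in WT FSK than their constitutive neighbour had in WT CON. The remaining ones of the 10 were chr1:221155447-221155605, chr7:137852791-137852980, chr1:226411012-226411246, chr1:52828395-52828564, chr7:122964832-122965010, chr1:228396561-228396747 and chr16:83826764-83827392, with values in the FSK libraries between 33.0 and 44.5 FPKM.

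The level of the FSK-only peaks dropped in a step at 5 kb from a constitutive peak. Between 4 and 5 kb away the median was 4.13 FPKM in WT FSK and 3.65 FPKM in Med14 S983A FSK. Between 5 and 6 kb away it was 3.08 and 2.75 FPKM, and it stayed between 2.70 and 2.88 FPKM in WT FSK at all greater distances. All 116 FSK-only peaks with at least 20 FPKM in both libraries were among the 6075 within 5 kb of a constitutive peak. With a limit of 12 FPKM in both, there were 515 such peaks within 5 kb (8.48%) and 14 farther away (0.149%). The share within 5 kb, 39.2%, was close to the 39.5% of all merged peaks.

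Peaks that 1 library alone called also reached high levels almost only within 5 kb of a constitutive peak. They were split at 5 kb only, so a step there cannot be told from a gradual decline. Of those called only in WT CON, 70 of 1651 within 5 kb of a constitutive peak reached 12 FPKM, against 0 of 3486 farther away. For peaks called only in Med14 S983A CON these counts were 66 of 1752 and 1 of 2345. Constitutive peaks did not show this contrast to that degree: 36.7% of those within 5 kb of another constitutive peak and 26.0% of the others had at least 12 FPKM in both FSK libraries. The peaks were called by macs2, which sets its threshold from the read density around each position, and the part of that step in these levels was not tested.

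**Figure D2:**
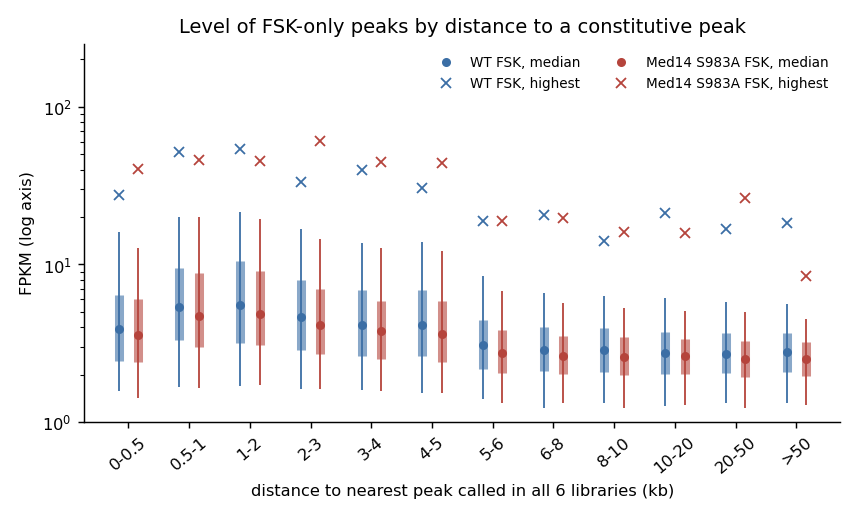
FPKM of the FSK-only peaks (log axis) by distance from the nearest peak called in all 6 libraries (kb), with medians (points), the middle 50% (thick bars), the 5th to 95th percentiles (thin lines) and the highest value (crosses) for WT FSK in blue and Med14 S983A FSK in red. The median in WT FSK is 4.13 FPKM at 4 to 5 kb and 3.08 FPKM at 5 to 6 kb.

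Because of this step, the peaks were also described apart. The 9405 FSK-only peaks more than 5 kb from a constitutive peak (60.8%) had medians of 2.80 FPKM in WT FSK and 2.61 FPKM in Med14 S983A FSK. The 6075 closer ones had 4.87 and 4.28 FPKM.

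Peaks called under FSK alone were shared between the genotypes to different degrees by length and level. The length is that of the merged peak, so that a peak called in 2 libraries is longer by construction. Among all peaks called in WT FSK and in no CON or Ex-4 library, 15480 of 36772 (42.1%) were also called in Med14 S983A FSK. Under 120 bp this share was 10.3%, between 200 and 250 bp 63.0%, and from 400 bp upwards 82.1%. Starting from Med14 S983A FSK, 58.6% of 26397 were also called in WT FSK, with 14.9% under 120 bp and 93.0% from 400 bp upwards. The share rose less with level, from 27.8% under 2 FPKM in WT FSK to 62.3% between 4 and 6 FPKM, and it was 58.4% from 12 FPKM upwards. These shares are part of the rule and describe the 2 peak lists, which came from libraries of different depth.

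Whether a peak called with FSK in both genotypes was also called with Ex-4 was related to its level, more clearly far from constitutive peaks than near them. Of the 21487 peaks called in both FSK libraries and in neither CON library, 72.0% were FSK-only, 11.8% were called in WT Ex-4 and 22.6% in Med14 S983A Ex-4, with 6.44% in both. Far from constitutive peaks (over 5 kb), the share called in WT Ex-4 rose from 8.83% at 2 to 3 FPKM to 22.6% at 6 to 8 FPKM and 39.4% (26 of 66 peaks) from 12 FPKM upwards, where the level is the geometric mean of the 2 FSK libraries. In Med14 S983A Ex-4 it rose from 15.9% to 48.6% and 69.7% over the same levels, the last from 46 of the 66 peaks. Within 5 kb of a constitutive peak the shares were 8.79% at 2 to 3 FPKM and 14.7% from 12 FPKM upwards in WT Ex-4, and 18.1% and 31.5% in Med14 S983A Ex-4. Away from constitutive regions, the peaks with the highest FSK levels were more often called with Ex-4 too, in both genotypes. Without the chromosome 1 region described below, the last shares were 40.9% in WT Ex-4 and 72.7% in Med14 S983A Ex-4. Below 2 FPKM the shares were higher again than at 2 to 3 FPKM. Far from constitutive peaks they were 13.7% in WT Ex-4 and 19.6% in Med14 S983A Ex-4, and within 5 kb 14.6% and 22.7%. In WT Ex-4 the share within 5 kb was thus about the same below 2 FPKM as from 12 FPKM upwards.

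Among these peaks, which had to be called in both FSK libraries, the level in the mutant was close to that in WT. The 21292 peaks called in WT FSK only and the 10917 called in Med14 S983A FSK only are left out by the rule. This choice also bears on the 2-fold shares and the correlation given below. The difference between Med14 S983A FSK and WT FSK was taken as log2(FPKM + 0.5), and its median over the FSK-only peaks was -0.093. It was 0.0096 over all peaks called in both FSK libraries, 0.038 over the constitutive peaks and -0.26 over the 1383 peaks called in all 4 stimulated libraries and no CON. The middle 50% of the FSK-only peaks lay between -0.46 and 0.26, and 56.8% were below 0. After centring each library on its constitutive peaks the median of the FSK-only peaks was 0.079 and that of the constitutive peaks 0.21, and after quantile normalization they were 0.068 and 0.098. This centring aligned the median levels of the constitutive peaks in the 2 libraries, not the median of their differences. It shifted both sets equally, and the constitutive median moved from 0.038 to 0.21. The sign of the difference thus depended on the scaling, while the FSK-only median stayed below the constitutive one under each. Its order against constitutive peaks depended on the level. Under 2 FPKM (mean of the 2 FSK libraries) the median was 0.049 for FSK-only and -0.054 for constitutive peaks, and at 2 to 3 FPKM it was -0.039 and -0.10. These levels hold 2197 and 5017 of the FSK-only peaks. At 4 to 6 FPKM the medians were -0.21 and -0.080, and from 12 FPKM upwards -0.081 and 0.15, so that the FSK-only peaks were above constitutive peaks of their level when weak and below them when strong.

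At least 2-fold higher values in Med14 S983A FSK were found for 363 FSK-only peaks (2.34%) and at least 2-fold lower values for 903 (5.83%). Over all peaks called in both FSK libraries the shares were 4.56% higher and 11.5% lower. The FSK-only peaks passed the 2-fold rule less often than this background in both directions, but the background peaks were longer (median 466 bp). At matched length the share of higher values stayed below the background up to 400 bp (1.81% against 2.81% at 150 to 200 bp, 3.15% against 4.32% at 250 to 300 bp). The share of lower values did not, with 3.01% against 2.63% at 150 to 200 bp, 9.72% in both at 250 to 300 bp and 16.2% against 14.5% from 400 bp upwards. At matched level (mean of the 2 FSK libraries) the share of lower values was below the background. It was 4.15% against 11.4% at 2 to 3 FPKM, 8.47% against 16.0% at 4 to 6 FPKM and 5.87% against 6.26% from 12 FPKM upwards. With each library centred, 4.32% of the FSK-only peaks were higher and 3.40% lower. Across the FSK-only peaks, the log2 values of the 2 FSK libraries had a Pearson correlation of 0.762, over 15480 peaks of 2 libraries that share neither depth nor clone. It was 0.811 in peaks within 5 kb of a constitutive peak and 0.506 in the others.

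The genotype difference varied with peak length. Its median was 0.14 in FSK-only peaks under 120 bp, -0.066 at 150 to 200 bp, -0.22 at 250 to 300 bp and -0.32 from 400 bp upwards. Constitutive peaks of the same lengths had 0.13 (32 peaks), 0.12, 0.014 and 0.038. In the FSK-only peaks of at least 400 bp, 16.2% were at least 2-fold lower in the mutant and 5.18% higher, against 12.8% and 4.31% of constitutive peaks of that length. These lengths are those of the merged peaks. The part that unequal widths of the calls in the 2 libraries have in this trend was not tested.

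With a log2 difference of -3.22, chr7:35538699-35538985 was the lowest FSK-only peak in the mutant relative to WT. It had 16.7 FPKM in WT FSK (95% exact Poisson interval 15.8 to 17.7) and 1.35 FPKM in Med14 S983A FSK (1.04 to 1.73). Its nearest constitutive peak, 18208 bp away, had 13.6 FPKM in WT CON and 6.41 FPKM in Med14 S983A CON. At chr2:29289865-29290187 the values were 21.2 and 2.29 FPKM, beside a constitutive peak that read 15.5 FPKM in WT CON but 1.16 FPKM in the CON library of the mutant. At chr1:205800065-205800521 they were 9.66 and 0.632 FPKM, with a neighbour of 12.7 and 3.17 FPKM in the CON libraries. The other two were chr19:12761471-12761837 (12.7 and 1.21 FPKM) and chr9:2326262-2326511 (18.4 and 2.07 FPKM). All 5 nearest constitutive peaks, 6.26 to 72.9 kb away, were lower in Med14 S983A CON than in WT CON. Whether a narrower call within the merged peak lowered any of the FSK values was not tested.

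Higher values in the mutant were led by chr4:122124989-122125415, with 0.991 FPKM in WT FSK (0.811 to 1.20) and 8.46 FPKM in Med14 S983A FSK (7.79 to 9.17), a log2 difference of 2.59. It was followed by chr2:257476122-257476371 with 1.26 and 9.91 FPKM and chr9:100158427-100159052 with 0.319 and 3.70 FPKM. The last of the 5 were chr11:83388398-83388751 with 0.812 and 5.53 FPKM and chr16:69664460-69664835 with 0.871 and 5.48 FPKM. Of their nearest constitutive peaks, 3 were higher and 2 lower in Med14 S983A CON than in WT CON. The limit from the width of calls applies to these 5 FSK-only peaks as well.

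Over all FSK-only peaks with a constitutive peak within 5 kb, the difference followed that of the neighbour in untreated cells. These CON libraries held almost no reads of the FSK-only peaks in the table. Where the neighbour was at least 2-fold lower in Med14 S983A CON, the 631 FSK-only peaks had a median genotype difference of -0.50 under FSK, and 21.6% were at least 2-fold lower. Where the neighbour was between equal and 0.5 higher on the log2 scale, the 2211 FSK-only peaks had a median of -0.028. Where it was more than 2-fold higher, the 266 FSK-only peaks had a median of 0.34, with 14.7% at least 2-fold higher and 1.13% at least 2-fold lower. The Spearman correlation across the 6075 FSK-only peaks was 0.314 with the neighbour in CON and 0.328 with the neighbour in Ex-4. Without chromosomes 4, 5, 9 and 15 it was 0.281 with the neighbour in CON, over 4895 peaks. The points share the same 4 libraries, and neighbours within a chromosome are not independent.

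By chromosome, FSK-only peaks were compared with constitutive peaks under FSK, so both sides rest on the same 2 libraries. The median difference of the FSK-only peaks was highest on chromosome 9 (0.16) and chromosome 5 (0.11) and lowest on chromosome 12 (-0.24) and chromosome 17 (-0.23). The constitutive peaks had 0.26, 0.22, -0.094 and -0.19 on these chromosomes under FSK, and 0.30, 0.21, -0.17 and -0.16 in CON. On chromosome 15 the FSK-only peaks had -0.21, and the constitutive peaks -0.086 under FSK but 0.016 in CON. On all 21 chromosomes the FSK-only peaks had a lower median than the constitutive peaks, by between 0.039 and 0.22 on the log2 scale. These medians are not matched for level, and FSK-only peaks under 3 FPKM had higher medians than constitutive peaks of that level, as given above. FSK-only peaks made up between 5.76% of the merged peaks (chromosome X) and 8.54% (chromosome 2).

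**Figure D3:**
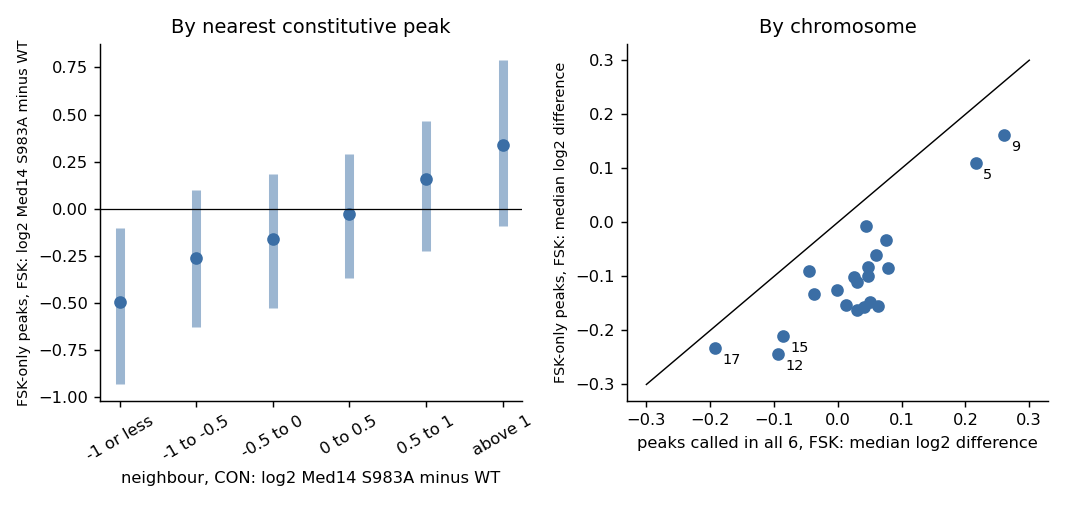
Left, the genotype difference under FSK of FSK-only peaks (log2, Med14 S983A minus WT, median and middle 50%) by the difference in CON of their constitutive neighbour within 5 kb. Right, median differences under FSK by chromosome for constitutive peaks (x) and FSK-only peaks (y, both log2) with the line of equal values. The medians rise from -0.50 to 0.34 on the left, and all 21 chromosomes lie below the line on the right.

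FSK-only peaks lay about as close to other peaks as merged peaks do in general. Their median distance to the nearest merged peak was 2164 bp, measured from centre to centre, which was close to the 2134 bp of all merged peaks. The median distance to a constitutive peak was 6972 bp, and 2.13% were more than 100 kb from one. For 9.81% of the FSK-only peaks the nearest merged peak was itself FSK-only, against 6.96% over all merged peaks and 6.79% of constitutive peaks. A second FSK-only peak was present within 10 kb of 24.6% of them, while 17.8% of constitutive peaks had an FSK-only peak that near. Peaks called in WT FSK only and in Med14 S983A FSK only had one as nearest peak in 8.05% and 8.62%. An FSK-only peak lay within 10 kb of 21.0% and 23.2% of them. The 1383 peaks called in all 4 stimulated libraries and no CON were like the FSK-only peaks in this, with an FSK-only peak as the nearest in 9.11% and within 10 kb in 26.5%.

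Most FSK-only peaks were isolated, while a few formed long runs. When FSK-only peaks with centres at most 10 kb apart were joined, 11668 (75.4%) stood alone, 1553 runs held 2 to 4 peaks, and 56 stretches held 5 or more. The stretches contained 367 FSK-only peaks (2.37%) on 18 chromosomes and had a median span of 20.4 kb. Of the 371 other merged peaks inside them, 35.8% were called in a CON library, against 73.8% of other peaks outside. A further 19.7% of the other peaks inside were called in both FSK libraries and with Ex-4 but in no CON, against 2.90% outside. The peaks lying between the FSK-only peaks of a stretch were less often called in untreated cells than peaks elsewhere, and more often called with both stimuli. Stretches were defined by FSK calls and absent CON and Ex-4 calls in these same libraries, so these shares are a description and not a finding. Without the region chr1:52605174-52787022 and 50 kb on each side these shares inside were 38.3% and 12.6%.

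The stretch with the most FSK-only peaks, chr1:52673975-52747197, held 66 merged peaks in 73.2 kb, of which 19 were FSK-only. Their values were 9.59 to 20.7 FPKM in WT FSK with a median of 14.1, and 8.19 to 19.8 FPKM in Med14 S983A FSK with a median of 12.7. The 8 constitutive peaks among them rose in WT cells from a median of 2.24 FPKM in CON to 6.58 FPKM under Ex-4 and 15.9 FPKM under FSK. In Med14 S983A cells they rose from 3.0 FPKM in CON to 9.50 FPKM with Ex-4 and 14.8 FPKM with FSK. In WT cells the 8 peaks changed by a median of 2.92 (log2) under FSK and 1.03 under Ex-4, and in Med14 S983A cells by 2.31 and 1.06. Of the 8 peaks, 6 were at least 2-fold higher with FSK in each genotype.

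A further stretch lay beside it at lower coordinates, chr1:52605174-52661428. It held 50 merged peaks, of which 11 were FSK-only, 24 were called in both FSK libraries and with Ex-4 but in no CON, and none were constitutive. Its FSK-only peaks had medians of 10.1 FPKM in WT FSK and 10.9 FPKM in Med14 S983A FSK.

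On chromosome 17, the stretch chr17:66312094-66364391 also held 19 FSK-only peaks, among 37 merged peaks in 52.3 kb. Their values were 3.78 to 13.1 FPKM in WT FSK with a median of 8.10, and 2.62 to 8.45 FPKM in Med14 S983A FSK with a median of 5.03. The median log2 difference between the genotypes was -0.50, and 17 of the 19 were lower in the mutant. Its 3 constitutive peaks had medians, in the order CON, Ex-4 and FSK, of 4.17, 4.47 and 11.6 FPKM in WT and of 1.86, 2.25 and 7.75 FPKM in Med14 S983A cells. Of these 3 peaks, 2 were lower in Med14 S983A CON than in WT CON and the third had nearly equal values. Their median log2 change with FSK was 1.37 in WT and 1.70 in Med14 S983A cells. In contrast to the chromosome 1 stretch, the change with Ex-4 was small, at 0.090 and 0.20.

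**Figure D4:**
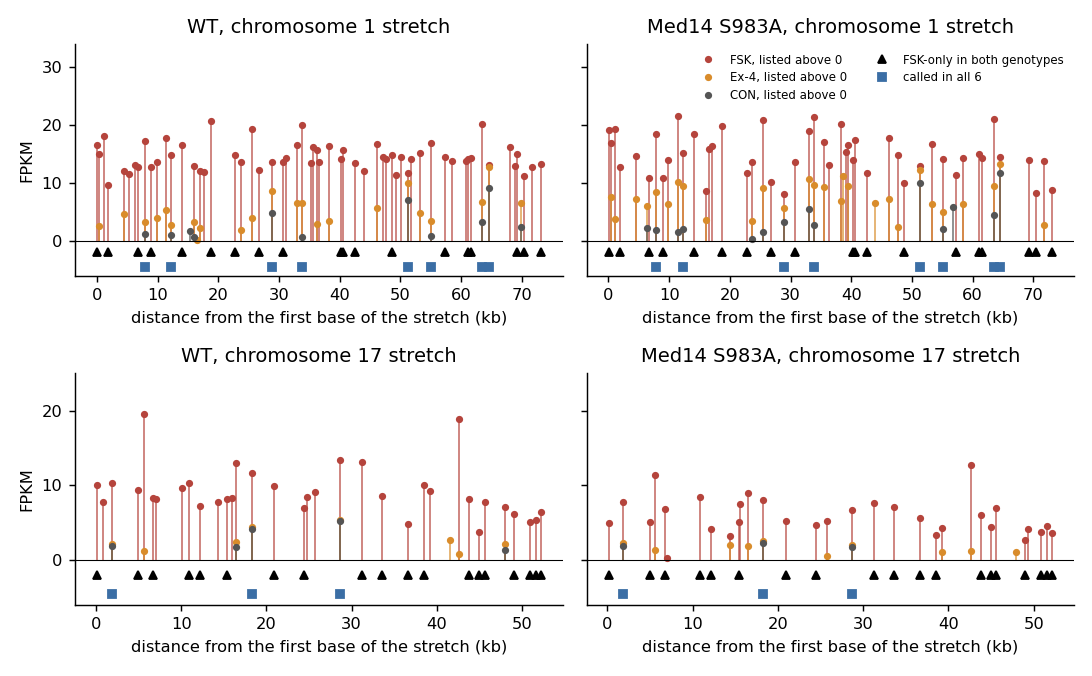
FPKM of every merged peak listed above 0 in CON (grey), Ex-4 (orange) and FSK (red) along the stretches of chromosome 1 (top) and chromosome 17 (bottom), by distance from the first base of the stretch (kb), in WT (left) and Med14 S983A (right) cells. Black triangles mark FSK-only peaks and blue squares peaks called in all 6 libraries, and CON values are listed for 11 (WT) and 14 (Med14 S983A) of the 66 peaks on chromosome 1 and for 5 and 3 of the 37 on chromosome 17.

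Other long stretches differed in level and in genotype. At chr6:25595898-25611882, 10 FSK-only peaks in 16.0 kb had medians of 8.52 FPKM in WT FSK and 10.2 FPKM in Med14 S983A FSK, and 1 of the 10 was lower in the mutant. At chr18:25837781-25881687, 10 FSK-only peaks had 2.72 and 2.08 FPKM, and all 10 were lower in the mutant. At chr5:63795411-63823585, 10 FSK-only peaks had 2.38 FPKM in WT FSK and 4.36 FPKM in Med14 S983A FSK, and 3 were lower in the mutant. None of these stretches held a constitutive peak. At chr13:47756610-47789469, 9 FSK-only peaks had 5.17 and 3.81 FPKM, and the 4 constitutive peaks there changed by 0.72 with FSK in WT and 0.91 in Med14 S983A cells on the log2 scale. The FSK-only peaks had a lower median in Med14 S983A FSK in 33 of the 56 stretches, and over all 367 peaks the median difference was -0.083, close to that of all FSK-only peaks.

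Constitutive peaks were more often higher with FSK where FSK-only peaks were dense. The stretches were defined by calls in the same FSK and CON libraries, so these shares are a description and not a separate test. Over all 86576 constitutive peaks, 5.94% were at least 2-fold higher in WT FSK than in WT CON, and 4.56% in Med14 S983A FSK than in Med14 S983A CON. Inside the 56 stretches, 17 of 63 constitutive peaks (27.0%, 95% exact binomial interval 16.6 to 39.7) passed this rule in WT cells, and 21 of 63 (33.3%, 22.0 to 46.3) in Med14 S983A cells. In both genotypes 16 of the 63 passed, and none was at least 2-fold lower with FSK in either. The median log2 change inside stretches was 0.54 in WT and 0.51 in Med14 S983A cells, against -0.14 and -0.12 outside. Without the 2 stretches of 19 FSK-only peaks the shares were 15.4% in WT and 23.1% in Med14 S983A cells. The intervals treat neighbouring peaks as separate, which they are not. The constitutive peaks inside stretches were weaker, with a median of 4.26 FPKM in WT CON against 8.77 FPKM outside. The shares were not matched for this level.

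The shares rose in steps when FSK-only peaks within 50 kb of a constitutive peak were counted. With none nearby, 4.94% of 38820 constitutive peaks were at least 2-fold higher with FSK in WT cells and 3.40% in Med14 S983A cells. With 3 or 4 nearby the shares were 8.80% and 7.54%, with 5 to 9 nearby 14.5% and 13.3%, and with 10 or more nearby 40.7% and 42.9% of 91 peaks. The median log2 change went from -0.18 to 0.85 in WT and from -0.19 to 0.68 in Med14 S983A cells. The median level of these constitutive peaks in WT CON was 7.95 FPKM with none nearby and 9.94 FPKM with 3 or 4. It was 9.79 FPKM with 5 to 9 and 5.17 FPKM with 10 or more, and the shares were not matched for it. The FSK libraries that define the FSK-only peaks enter this comparison, so that a region with more reads under FSK raises both sides of it. Without the 3 neighbouring stretches at chr1:52605174-52787022 and 50 kb on each side of them, the shares with 10 or more nearby were 31.9% in WT and 34.7% in Med14 S983A cells, over 72 peaks.

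The CON and Ex-4 libraries also entered the choice of FSK-only peaks, through the absence of a call, so the shares for Ex-4 are a description too. Over all constitutive peaks, 0.448% were at least 2-fold higher in WT Ex-4 and 0.635% in Med14 S983A Ex-4. With no FSK-only peak within 50 kb these shares were 0.307% and 0.492%. With 5 to 9 they were 1.67% and 2.41%, and with 10 or more 12.1% (11 of 91, interval 6.19 to 20.6) and 15.4% (14 of 91, interval 8.67 to 24.5). These last shares rested largely on 1 locus. Without the same chromosome 1 region they were 2.78% (2 of 72, interval 0.338 to 9.68) in WT and 4.17% (3 of 72, interval 0.868 to 11.7) in Med14 S983A cells, while those with 5 to 9 nearby were 1.61% and 2.31%. Inside the stretches, 5 of 63 constitutive peaks were at least 2-fold higher with Ex-4 in WT and 6 of 63 in Med14 S983A cells, and without that region 1 of 54 in each.

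**Figure D5:**
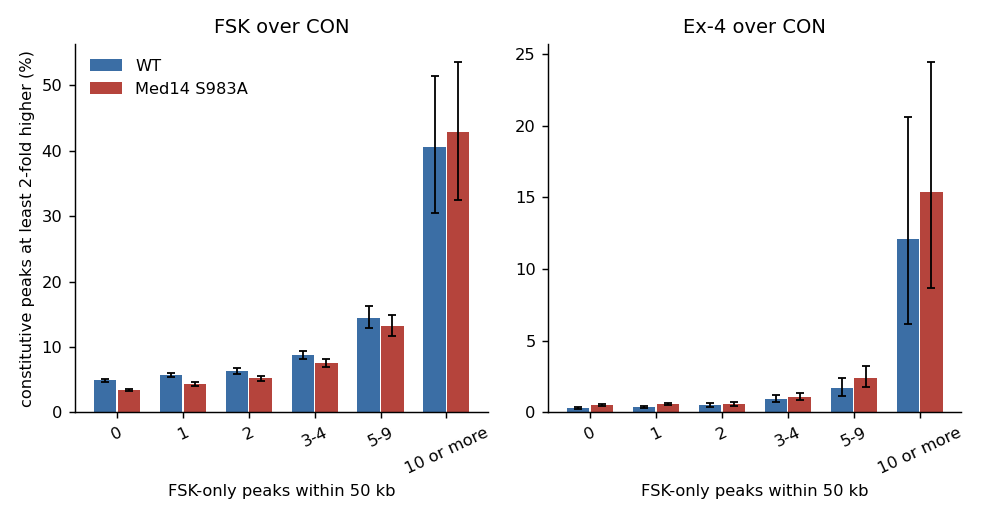
Share of constitutive peaks (called in all 6 libraries, %) at least 2-fold higher with FSK (left) or Ex-4 (right) than in the CON library of the same genotype, by the number of FSK-only peaks within 50 kb, with 95% exact binomial intervals that cover counting of peaks only. The vertical scales differ, and with 10 or more the bars reach 40.7% and 42.9% for FSK and 12.1% and 15.4% for Ex-4, the latter 2.78% and 4.17% without 1 region of chromosome 1.

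Closeness to an FSK-only peak went with a smaller difference than density did. With exactly 1 FSK-only peak within 50 kb, 5.70% of 25266 constitutive peaks were at least 2-fold higher with FSK in WT and 4.33% in Med14 S983A cells. For the 5747 constitutive peaks that were nearest to an FSK-only peak and within 5 kb of it, the median log2 change with FSK was -0.099 in WT and -0.083 in Med14 S983A cells, against -0.14 and -0.12 over all constitutive peaks. Of the 5747 peaks, 7.76% and 6.23% were at least 2-fold higher with FSK. Neighbours chosen in the same way for peaks called in WT FSK only had 6.56% and 4.94%. For peaks called in Med14 S983A FSK only the shares were 6.15% and 5.23%. For peaks called in all 4 stimulated libraries and no CON they were 9.64% and 8.36%. Constitutive peaks more than 100 kb from any FSK-only peak had median changes of -0.21 and -0.23, and 4.59% and 3.0% were at least 2-fold higher. Between 5 and 10 kb the shares were 8.05% and 7.17%, as high as at shorter distances.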

How the data were processed

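ATAC-seq was performed in INS-1 cells with 1 library for each of 6 conditions. Before deposit, the authors used Trim Galore for trimming, bwa mem for alignment to the rn6 build, samtools to drop duplicates, mitochondrial and low-confidence reads, and macs2 for peaks. The deposited table, made with HOMER, holds FPKM of each merged peak and the names of the libraries that called it. Coordinates are given as in that table. Values are relative to reads in a library's own peaks. The labels and methods do not name the mutant line or say whether cultures were pooled.

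The 3 mitochondrial peaks were left out. Members were selected by their calls, and differences were taken on log2(FPKM + 0.5), with 2-fold as the size rule. No p-value was computed. Reads were recovered from the steps of FPKM times length, and all low values checked lay within 0.15 of a whole number. Named peaks were the 10 strongest by the lower FSK value, the 5 most different between genotypes in each direction, and 3 on each side of the rule. Stretches were ranked by their number of members. Members and lists were chosen with earlier results of these data known. Stretches, the 5 kb split by level and the 50 kb count were chosen after seeing the data. Sequences, genes and motifs were not analysed here. Calculations were tested on simulated data. Tables were handled in pandas 2.3.3 under Python 3.11.15, intervals came from scipy 1.17.1, and plots were drawn with matplotlib 3.10.9.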

Additional observations from a re-analysis of the deposited data

Results flagged for a closer look

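The stretch chr17:62324449-62361068 held 8 FSK-only peaks and 1 constitutive peak. The FSK change of this weak constitutive peak went in opposite directions in the genotypes. It had 3.01 FPKM in WT CON and 3.91 FPKM in WT FSK, a log2 change of 0.33. In Med14 S983A cells it had 1.86 FPKM in CON and 1.38 FPKM in FSK, a log2 change of -0.33. With 1 library per condition, this difference between the genotypes was not tested. The FSK-only peaks of the stretch had medians of 2.51 FPKM in WT FSK and 1.81 FPKM in Med14 S983A FSK.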

How the results depend on the processing

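No paired analysis was possible because there is only 1 library per condition, and no replicate was left out for the same reason. Motif shares were not run, since the rn6 sequence was not used here. A peak's 0 limits every statement on opening, and depth limits peaks near 1 FPKM.

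The median genotype difference under FSK (-0.093) reversed to 0.079 with each library centred and to 0.068 with quantile normalization. The centring aligned the median levels of constitutive peaks, whose own median difference was then 0.21, so this reversal depends on how centring was defined. The median genotype difference was -0.10 and -0.082 with pseudocounts of 0.1 and 1, and -0.11 without chromosomes 4, 5, 9 and 15. With the filter of 1 FPKM it was -0.093, and over peaks farther than 5 kb from a constitutive peak -0.089. The share at least 2-fold higher in Med14 S983A FSK (2.34%) was 3.80% and 1.38% with pseudocounts of 0.1 and 1, 4.32% centred, 4.20% quantile normalized, 9.84% at 1.5-fold and 0.0969% at 4-fold. The share at least 2-fold lower (5.83%) was 3.40% centred, 3.46% quantile normalized, 18.4% at 1.5-fold and 0.239% at 4-fold, so that centring and quantile normalization turned the balance towards higher values. The median FSK change of constitutive peaks near FSK-only peaks (-0.099 in WT, -0.083 in Med14 S983A) was -0.11 and -0.098 within 2 kb. With each library centred it was -0.043 in WT and reversed to 0.025 in Med14 S983A cells. The median distance to the nearest peak (2164 bp) became 6972 bp when only constitutive peaks counted.

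Chosen after seeing the data, gaps of 5 and 20 kb gave 11 and 133 stretches in place of 56. The share of constitutive peaks inside stretches that were at least 2-fold higher with FSK (27.0% in WT, 33.3% in Med14 S983A) was 66.7% in both with a gap of 5 kb, and 21.7% in Med14 S983A cells with 20 kb. Without the 2 stretches of 19 FSK-only peaks it was 15.4% in WT cells. Without the chromosome 1 region it was 20.4% and 27.8%. Of 50 alternative values, 24 stayed close to the reported one, 23 moved and 3 reversed, and beyond the shift that the alternative itself makes, the cause was not tested.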
